A study of Homo sapiens with 6 samples.

Results

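Heat shock proteins are molecular chaperones, the machinery that folds new proteins, refolds damaged ones and hands over those beyond repair for degradation. Transcripts of these genes were followed in gastric cancer cells made to express the transcription factor MIST1. The genes listed were HSPA8, HSPH1, HSP90AA1, HSP90AB1, DNAJB1, HSPB1, BAG3, HSPD1, HSPE1 and HSF1. Every probe set assigned to exactly 1 of these genes by the platform annotation was taken, which gave 22 probe sets of the 41097 single-gene probe sets on the array. The 22 probe sets represent 9 of the 10 genes: 5 for HSPD1, 4 for HSP90AA1, 3 each for HSPH1 and HSP90AB1, 2 each for DNAJB1 and HSF1, and 1 each for HSPB1, BAG3 and HSPE1. HSPA8, the constitutive cytosolic HSP70, has no value here, because its 4 probe sets are also assigned to small nucleolar RNA genes. Probe sets shared by several HSPA1 genes were left out in the same way, so among the listed genes HSP70 is represented only through its partners. Other HSP70 genes are among the further chaperone lists, given later. No measured value decided which probe sets of the listed genes were taken. The genes themselves were chosen with earlier results of these data known.

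RNA was measured on 6 one-colour Affymetrix arrays from 2 human gastric cancer cell lines, AGS, an adenocarcinoma line, and HGC-27, an undifferentiated carcinoma line. In each line 1 array held cells nucleofected with 3 µg of MIST1 plasmid and 1.5 µg of a GFP plasmid (MIST1), 1 array held cells given 3 µg of empty vector and the same GFP plasmid (GFP control), and 1 array held untransfected cells (parental). Both transfected populations were sorted on GFP fluorescence 24 h after transfection and cultured for a further 24 h, whereas no label says that parental cells were sorted or mock transfected. The study asked which genes rise after transient MIST1 expression, and with a single array for a condition in a line, the lines are the only replicates.

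The cytosolic system runs on HSP70 and HSP90. J-domain proteins such as DNAJB1 deliver clients to HSP70, exchange factors such as HSPH1 release them, and HSP90 completes the maturation of kinases and steroid receptors. In mitochondria the HSPD1 chaperonin and its lid, HSPE1, enclose a folding protein. HSF1 is the transcription factor that raises many of these genes when unfolded proteins accumulate, by binding inverted repeats of a short GAA motif, the heat shock elements, and gastric cells meet such stress from acid, irritants and infection.

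Heat shock element letters occur in the promoters of most of these genes. In the RefSeq promoter table for GRCh38.p14, where a window runs from 250 bases before a gene's start to 50 bases after it, the letters GAANNTTC and TTCNNGAA, each its own reverse complement, were searched without mismatches. At least 1 match lay in 7 of 15 windows of the heat shock genes (46.7%), against 13.5% of all 35116 windows. A further unit of the repeat, that is TTCNNGAANNTTC or GAANNTTCNNGAA, followed in 4 of the 15 windows (26.7%), against 0.49% of all windows. By symbol, 9 of the 10 genes, all but HSF1, were matched to the table. A match was found for 6 of these 9 genes, HSPA8 among them, and HSPH1, BAG3 and HSPE1 had none, which says only that these exact letters are absent from those windows. A match is a stretch of letters, and the study holds no measurement of HSF1 binding. The stretches around the matches are shown for the genes with expression values, because HSF1 is known to bind such repeats. Capitals mark the heat shock element letters. The HSP90AA1, HSP90AB1 and longer DNAJB1 stretches each hold separate runs of these letters. Of these genes HSPB1 has 1 start in the table, HSP90AA1 and HSPD1 have 2, and HSP90AB1 and DNAJB1 have 3. The HSPB1 match lies between 182 and 175 bases before its start. The HSP90AA1 matches belong to 1 of its 2 windows, between 88 and 61 bases before that start, and the HSP90AB1 matches to 1 of its 3 windows, between 165 and 100 bases before that start. The DNAJB1 matches lie between 77 and 40 bases before the upstream start and directly after the downstream one, and the HSPD1 matches lie between 245 and 228 bases before the downstream start.
HSP90AA1, chr14:102087089-102087148, minus strand: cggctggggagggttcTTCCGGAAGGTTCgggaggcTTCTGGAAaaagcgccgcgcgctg
HSP90AB1, chr6:44247762-44247859, plus strand: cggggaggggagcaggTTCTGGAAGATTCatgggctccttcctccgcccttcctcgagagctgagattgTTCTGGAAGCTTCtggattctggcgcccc
DNAJB1, upstream start, chr19:14518421-14518490, minus strand: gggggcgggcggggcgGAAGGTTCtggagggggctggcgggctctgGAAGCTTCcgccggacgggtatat
DNAJB1, downstream start, chr19:14517913-14517952, minus strand: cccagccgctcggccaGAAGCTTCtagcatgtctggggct
HSPB1, chr7:76302475-76302514, plus strand: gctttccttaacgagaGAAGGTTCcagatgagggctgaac
HSPD1, downstream start, chr2:197500052-197500090, minus strand: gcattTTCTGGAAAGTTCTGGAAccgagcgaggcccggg

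HSPD1 and HSPE1 are neighbours transcribed in opposite directions. The HSPE1 start lies 105 bases from the upstream HSPD1 start, and the HSPD1 starts in the table lie 434 bases apart. The 300 bases of the HSPE1 window are shown because the values of the 2 genes are set side by side later. Capitals mark the bases between the upstream HSPD1 start and the HSPE1 start.
HSPE1, chr2:197500129-197500428, plus strand: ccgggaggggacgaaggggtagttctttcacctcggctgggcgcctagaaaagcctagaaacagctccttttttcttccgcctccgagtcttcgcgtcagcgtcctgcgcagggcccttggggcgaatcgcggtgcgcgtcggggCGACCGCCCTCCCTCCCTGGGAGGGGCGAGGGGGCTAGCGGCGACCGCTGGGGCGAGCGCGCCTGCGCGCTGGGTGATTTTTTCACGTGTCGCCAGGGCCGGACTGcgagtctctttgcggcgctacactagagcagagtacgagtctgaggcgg

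The values are the intensities the authors deposited, on a linear scale. An intensity depends on the probes, so levels are compared between arrays for 1 probe set and not between probe sets or genes. Array medians lay between 49.12 and 51.96. For tests, intensities under 17.6, the 25th percentile of all values, were raised to it, log2 was taken, and probe sets above the overall median of 50.53 on at least 2 of 6 arrays were kept. Of the 22 heat shock probe sets 21 passed; the fifth HSPD1 probe set, 243845_at, was at 10.9 or less on every array. Called means an adjusted p under 0.05 in limma, with Benjamini-Hochberg adjustment over all 25954 single-gene probe sets tested.

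The probe set of BHLHA15, the gene of MIST1, read 72.5 (MIST1), 75.8 (GFP control) and 66.3 (parental) in AGS, and 58.7, 61.9 and 41.1 in the same order in HGC-27. It does not separate the MIST1 arrays from the controls, the labels do not say whether it can read the construct, and it therefore does not check the labels. Of the 5 epithelial markers EPCAM, KRT8, KRT18, KRT19 and CDH1, all 5 lay above the median on each AGS array, with sums from 39087.5 to 46067.3. On the HGC-27 arrays 1 or 2 of the 5 did, with sums from 1447.7 to 1689.6, and EPCAM, KRT18 and KRT19 were at 35.8 or less. Among 6 leukocyte and stromal markers with a single-gene probe set, the sums lay between 850.6 and 1537.9 in AGS and between 6932.8 and 7504.7 in HGC-27, where LUM, a collagen-binding proteoglycan, read 1082.3 to 1337.2, against 3.9 or less in AGS. The parental arrays stood apart in noncoding RNA. MALAT1, a nuclear noncoding RNA, read 528.8 (MIST1), 389.6 (GFP control) and 3684.6 (parental) in AGS, and 381.6, 323.9 and 1565.8 in HGC-27. The control probe set for the middle of 18S ribosomal RNA gave 46.8, 48.2 and 1141.7 on the AGS arrays, in the same order, and 52.7, 52.0 and 370.5 on those of HGC-27. The 3′ to 5′ ratios of GAPDH (0.83 to 0.88) and ACTB (0.97 to 1.05) differed little over the 6 arrays.

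The spread of a probe set over the 6 arrays was taken as its highest over its lowest value after the floor. It was under 1.25-fold for 10 of the 21 heat shock probe sets tested, beside 5.16% of all probe sets, under 1.5-fold for 15, beside 22% of all, and under 2-fold for 17, beside 50.5% of all. Brighter probe sets vary less on this array. Among those with a mean intensity of at least 1000, the spread was under 1.25-fold for 10 of 16 heat shock probe sets, beside 14.1% of all 4546. That match in brightness is loose, because the 4 HSP90AA1 probe sets, all under 1.25-fold, had means from 9174.3 to 11697.6. A closer match was not made, and probe sets of 1 gene are not independent. HSP90AA1, the stress-inducible cytosolic HSP90, was among the steadiest. Its probe set 214328_s_at read 12150 (MIST1), 12009.9 (GFP control) and 11918.4 (parental) in AGS, and 11788.2, 11592.2 and 10727.1 in HGC-27. The HGC-27 parental array was the lowest by that probe set. None of the 4 HSP90AA1 probe sets was called in the main fit of any comparison that follows. Alternative settings called some of them, such as 210211_s_at in 3 settings of AGS against HGC-27.

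**Figure D1:**
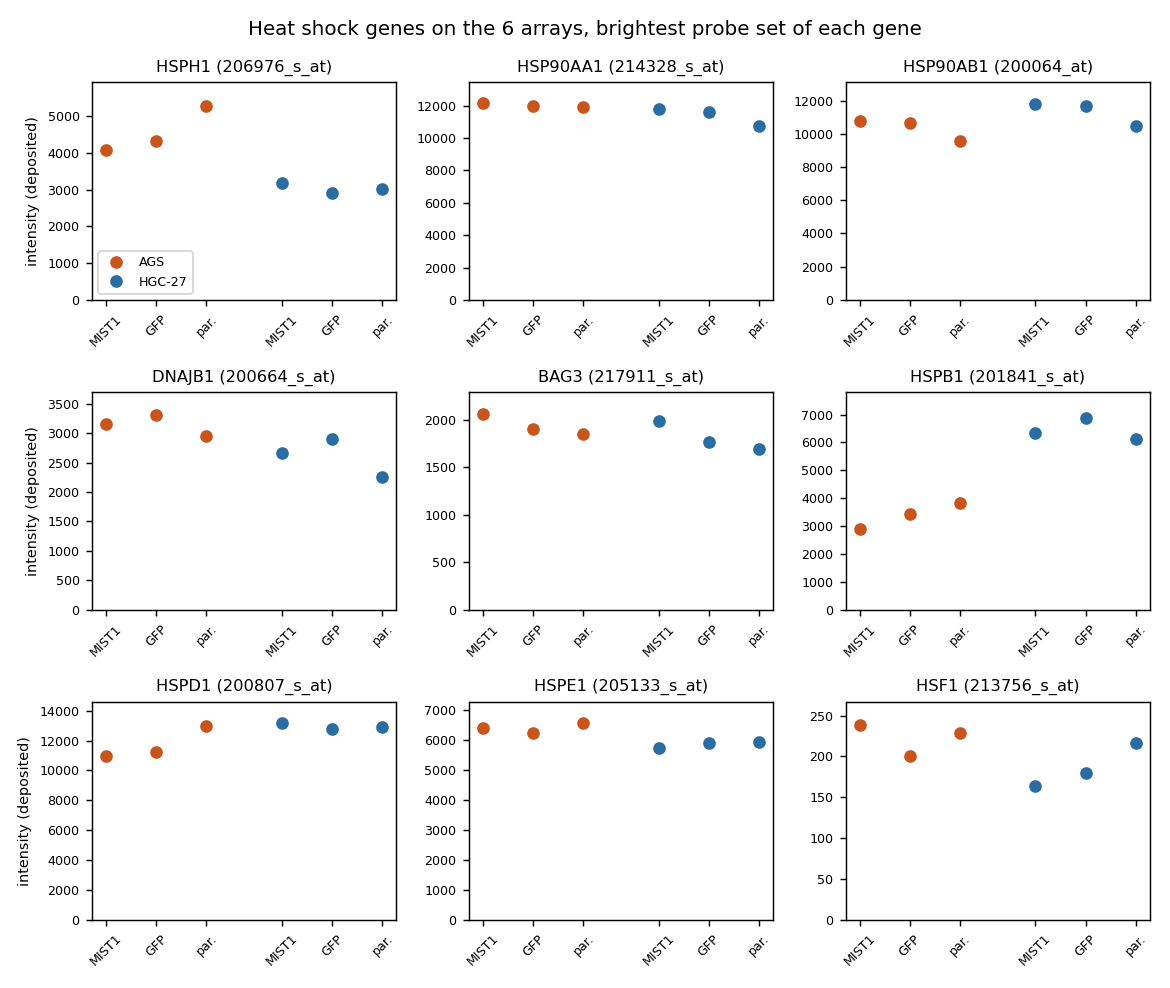
Deposited intensity (y axis, linear and from 0) of 9 heat shock genes on the 6 arrays, 1 panel per gene drawn from the probe set with the largest mean. Each point is 1 array, AGS at the left and HGC-27 at the right, in the order MIST1, GFP control and parental (par.). HSP90AA1 lies nearly level, the HSPB1 points are lower in AGS, and HSPD1 is highest in the parental array within AGS.

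MIST1 against the GFP control, the comparison the study was built for, changed no heat shock probe set past the test. With limma 0 of 21 were called, where 0% of all 25954 probe sets were (adjusted p of 1 for each heat shock probe set). At an unadjusted p under 0.05 the count was also 0 of 21, against 1.21% of all probe sets, and 0 of 21 differed by at least 1.5-fold one way in both lines, against 0.239% of all. The sign was the same in both lines for 13 of 21, 5 higher and 8 lower, beside 56.4% of all probe sets. RAB3D, a secretory vesicle GTPase taken as a check of the labels, read 1308.1 against 539.5 in AGS and 1782.5 against 504.4 in HGC-27 (MIST1 against GFP control), above its control in both lines. Each array measures a pool of cells, so fewer cells expressing a gene and less RNA per cell cannot be told apart.

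BAG3, the adaptor that couples HSP70 to small heat shock proteins and to selective autophagy, read 2066.9 with MIST1 against 1904 in the GFP control in AGS, and 1984.9 against 1766.7 in HGC-27. Both MIST1 arrays were the highest of their line, and the log2 difference was 0.14 (SE 0.09, n = 2 lines, limma adjusted p = 1). HSPB1, the small heat shock protein HSP27 that holds unfolded proteins and steadies actin, read 2901.9 with MIST1 against 3424.1 in the GFP control in AGS, and 6354 against 6892.7 in HGC-27. The log2 difference of HSPB1 was -0.18 (SE 0.11, limma adjusted p = 1). DNAJB1, the J-domain partner of HSP70, was lower with MIST1 by both of its probe sets in both lines, at log2 differences of -0.09 and -0.08 (SE 0.08 each). A fit of only the 4 arrays compared, which called 61 probe sets in all, had an SE of 0.05 for BAG3 and 0.04 for HSPB1. It also called 0 of 21, with limma adjusted p of 0.314 for BAG3 and 0.167 for HSPB1.

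HSF1, the regulator itself, had log2 differences of -0.14 (SE 0.18) by probe set 202344_at and 0.06 (SE 0.17) by 213756_s_at. Probe set 213756_s_at read 238.6 with MIST1 against 200.8 in the GFP control in AGS, and 164.1 against 179.8 in HGC-27, opposite ways in the lines. The HSP90AB1, HSP90AA1, HSPE1 and bright HSPD1 probe sets differed by at most 0.06 on the log2 scale. HSPH1 stood at 0.023 (206976_s_at), 0.06 (208744_x_at) and -0.191 (235573_at). The widest differences among all 21 belonged to the dim HSPD1 probe sets, 0.25 (SE 0.43) for 241716_at and -0.21 (SE 0.28) for 243372_at. A missed threshold does not show that the values were alike.

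**Figure D2:**
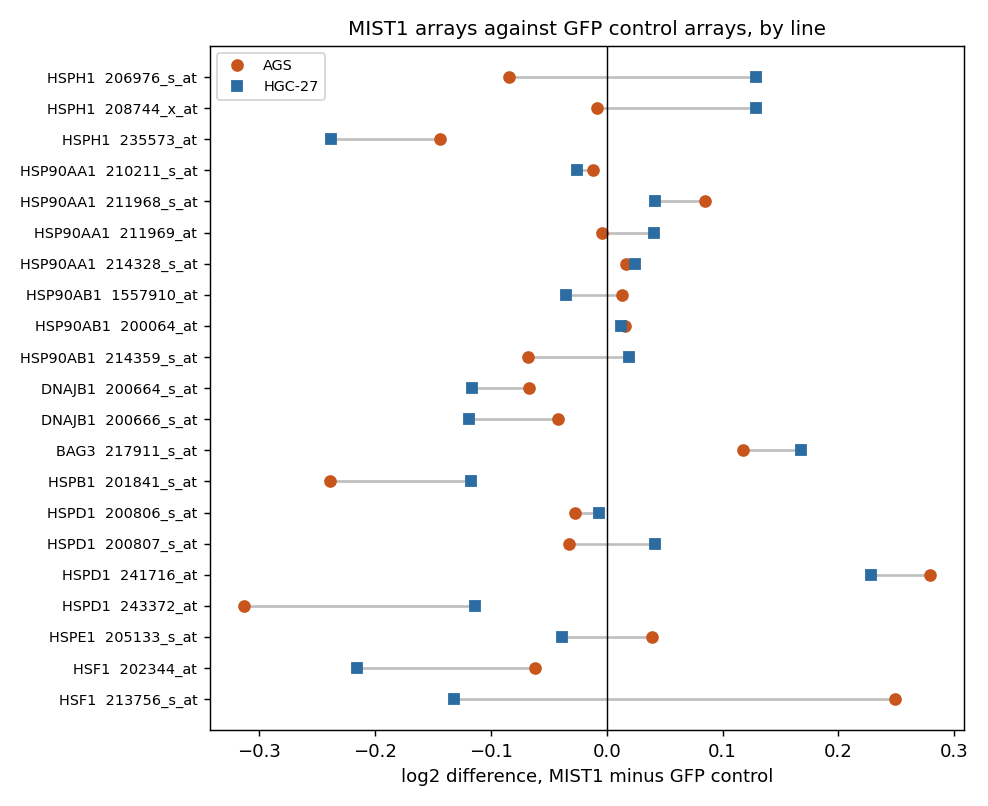
Log2 difference between the MIST1 and the GFP control array of each line (x axis) for the 21 heat shock probe sets tested (y axis), with circles for AGS and squares for HGC-27. BAG3 lies at 0.12 in AGS and 0.17 in HGC-27, HSPB1 at -0.24 and -0.12, and the points of several probe sets lie on both sides of 0.

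The GFP control against parental comparison measures transfection, GFP, the empty vector and sorting together, which cannot be told apart here. No heat shock probe set was called, 0 of 21, beside 0.659% of all probe sets. At an unadjusted p under 0.05 there were 3 of 21, against 22.9% of all, and 0 of 21 differed at least 1.5-fold one way in both lines, against 5.09%. The sign agreed in both lines for 16 of 21, 6 higher and 10 lower, beside 60.4% of all. DNAJB1 by 200664_s_at read 3306.4 in the GFP control against 2954.7 in parental cells in AGS, and 2891.2 against 2250.9 in HGC-27, a log2 difference of 0.26 (SE 0.08, limma adjusted p = 0.139). Its other probe set, 200666_s_at, had a log2 difference of 0.10 (SE 0.08). HSP90AB1, the constitutive cytosolic HSP90, read 10661.1 against 9573 in AGS and 11700.5 against 10488 in HGC-27 by 200064_at, a log2 difference of 0.16 (SE 0.04, limma adjusted p = 0.103). Its probe sets 1557910_at and 214359_s_at stood at 0.04 (SE 0.06) and -0.05 (SE 0.05), so the 3 probe sets of HSP90AB1 disagreed. The HSPD1 probe set 241716_at was at -1.41 (SE 0.43, limma adjusted p = 0.133), while the other HSPD1 probe sets tested were at -0.12, -0.11 and -0.03. HSPH1 was lower than parental in both lines by all 3 of its probe sets. Its log2 differences were -0.169, -0.297 and -0.258 (limma adjusted p = 0.388, 0.234 and 0.444).

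The count of calls changed most when a parental array was left out. Such a fit holds 1 parental array, which is fitted exactly, so the spread of the difference between the lines does not enter. Its counts therefore cannot be set beside those of the main fit, here or in the next comparison. Leaving out the HGC-27 parental array, after which the comparison rests on AGS, 10 of 21 were called, 2 higher and 8 lower, and leaving out the AGS parental array 7 were called, all higher. Those fits called 8516 and 9952 of all probe sets. Without the AGS MIST1, the HGC-27 MIST1 or the HGC-27 GFP control array, and in the fit of only the 4 arrays compared, 1 probe set was called each time, 241716_at of HSPD1, lower. The MALAT1 and 18S ribosomal values given above moved with the same contrast, and their part in these results was not tested.

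MIST1 against parental shares the parental arrays with the comparison just described and is not independent of it. Here too 0 of 21 were called, beside 3.11% of all probe sets, with 2 of 21 at an unadjusted p under 0.05 against 25.5% of all. None of the 21 was 1.5-fold different one way in both lines, against 5.89% of all, and 10 of 21 had 1 sign in both lines, 5 higher and 5 lower, beside 61.7% of all. BAG3 read 2066.9 against 1851.2 in AGS and 1984.9 against 1694.4 in HGC-27 (MIST1 against parental), a log2 difference of 0.19 (SE 0.09, limma adjusted p = 0.219). HSP90AB1 by 200064_at was at 0.17 (SE 0.04, limma adjusted p = 0.0728), while its probe sets 1557910_at and 214359_s_at were at 0.025 and -0.071. The widest differences of the 21 were negative. They were -1.155 for HSPD1 by 241716_at (SE 0.434, limma adjusted p = 0.162) and -0.448 for HSPH1 by 235573_at (SE 0.188, limma adjusted p = 0.197). The count of called probe sets was 9, 1 higher and 8 lower, when the HGC-27 parental array was left out, in a fit that called 9689 of all probe sets. It was 4, all higher, when the AGS parental array was left out, in a fit that called 9947 of all. It was 1, the HSPD1 probe set 241716_at, without the AGS GFP control, the HGC-27 GFP control or the HGC-27 MIST1 array.

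More heat shock probe sets passed between the cell lines than between conditions, in a comparison with 3 arrays on each side where a comparison of conditions has 2. In AGS against HGC-27, with the 3 conditions of a line standing in for replicates, 4 of 21 probe sets were higher in AGS, beside 32.9% of all probe sets, and 7 were lower in AGS, beside 26.9% of all. The higher count lies under its background and the lower count slightly above it, and neither sets the heat shock genes apart. The lower count holds several probe sets each of HSPD1 and HSP90AB1, which are not independent. By gene, with 1 probe set each, 3 of 9 were higher and 2 lower, beside 33.3% and 27.4% of all genes. The count of 11, beside 15525 of all probe sets, became 2 when dim probe sets were not filtered out, beside 12295 of all. It became 5 without the variance trend, beside 14883, and 7 without condition as a block, beside 13680. At 1.5-fold or more in all 3 conditions, 0 of 21 were higher, against 19.5% of all, and 1 was lower, against 15.5% of all. That probe set was HSPB1.

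HSPB1 read 2901.9 (MIST1), 3424.1 (GFP control) and 3821.5 (parental) in AGS, against 6354, 6892.7 and 6126.4 in HGC-27. Every AGS array was below every HGC-27 array, at means of 3382.5 ± 461.2 in AGS and 6457.7 ± 393.5 in HGC-27 (SD, n = 3 arrays each). The log2 difference was -0.94 (SE 0.09, limma adjusted p = 0.000119), 0.521-fold. HSPH1, the HSP110 exchange factor, was the counterpart on the AGS side. Its probe set 206976_s_at read 4071.1 (MIST1), 4315.6 (GFP control) and 5260.1 (parental) in AGS, against 3171.2, 2899.4 and 3006.5 in HGC-27. The lines did not overlap, and the log2 difference was 0.58 (SE 0.09, limma adjusted p = 0.00126). The HSPH1 probe set 208744_x_at, whose suffix marks possible cross-hybridization, gave 0.64 (SE 0.11, limma adjusted p = 0.00183). The third, 235573_at, read 92.2 to 170.3 over the 6 arrays and gave 0.34 (SE 0.15, limma adjusted p = 0.096), with the lines overlapping.

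HSP90AB1 was lower in AGS by all 3 of its probe sets, at log2 differences of -0.25, -0.13 and -0.24 (limma adjusted p = 0.00332, 0.0131 and 0.00216). Its brightest probe set, 200064_at, read 10777.9 (MIST1), 10661.1 (GFP control) and 9573 (parental) in AGS, against 11799.8, 11700.5 and 10488 in HGC-27. AGS was the lower line within each condition, though the ranges of the lines overlapped, and the call of 200064_at was lost without any 1 of the 4 transfected arrays, with the difference still at -0.13. HSP90AA1 differed by 0.02 to 0.08 on the log2 scale over its 4 probe sets, and none passed. DNAJB1 was higher in AGS by 200664_s_at, at 0.28 (SE 0.07, limma adjusted p = 0.0113), while 200666_s_at gave 0.16 (SE 0.07, limma adjusted p = 0.0778). After quantile normalization the DNAJB1 difference by 200664_s_at was 0.11 (limma adjusted p = 0.128). BAG3 gave 0.10 (SE 0.07, limma adjusted p = 0.272), and both HSF1 probe sets also missed the threshold, at 0.30 (SE 0.15) and 0.26 (SE 0.14).

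Of the mitochondrial pair, HSPD1 was lower in AGS and HSPE1 slightly higher. HSPD1 by 200806_s_at read 8096.4 (MIST1), 8249 (GFP control) and 9628.6 (parental) in AGS, against 10499.1, 10551.1 and 10596 in HGC-27. Every AGS array was below every HGC-27 array, at a log2 difference of -0.29 (SE 0.06, limma adjusted p = 0.00347). HSPE1, the neighbour whose promoter window is shown above, read 6395.3, 6222.8 and 6559.1 in AGS, against 5733.6, 5890.6 and 5915.3 in HGC-27. All AGS arrays were above all HGC-27 arrays, and the log2 difference was 0.13 (SE 0.05, limma adjusted p = 0.0458). That sign depends on the scaling, since quantile normalization gave -0.01 for HSPE1 (limma adjusted p = 0.877). The call of HSPE1 was also lost without any 1 of the AGS MIST1, AGS GFP control, HGC-27 MIST1 and HGC-27 GFP control arrays. The brightest HSPD1 probe set, 200807_s_at, gave -0.15 (SE 0.05, limma adjusted p = 0.0539). The dim HSPD1 probe sets 241716_at and 243372_at gave -1.17 (SE 0.35, limma adjusted p = 0.0259) and -0.93 (SE 0.23, limma adjusted p = 0.011), the first of them not called with the floor at the median. These differences are means over the 3 conditions. By condition, 241716_at was at -1.72 with MIST1, -1.77 in the GFP control and -0.02 in parental cells, and 200807_s_at was at 0.01 in parental cells. The difference between the HSPD1 and HSPE1 values was not tested.

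**Figure D3:**
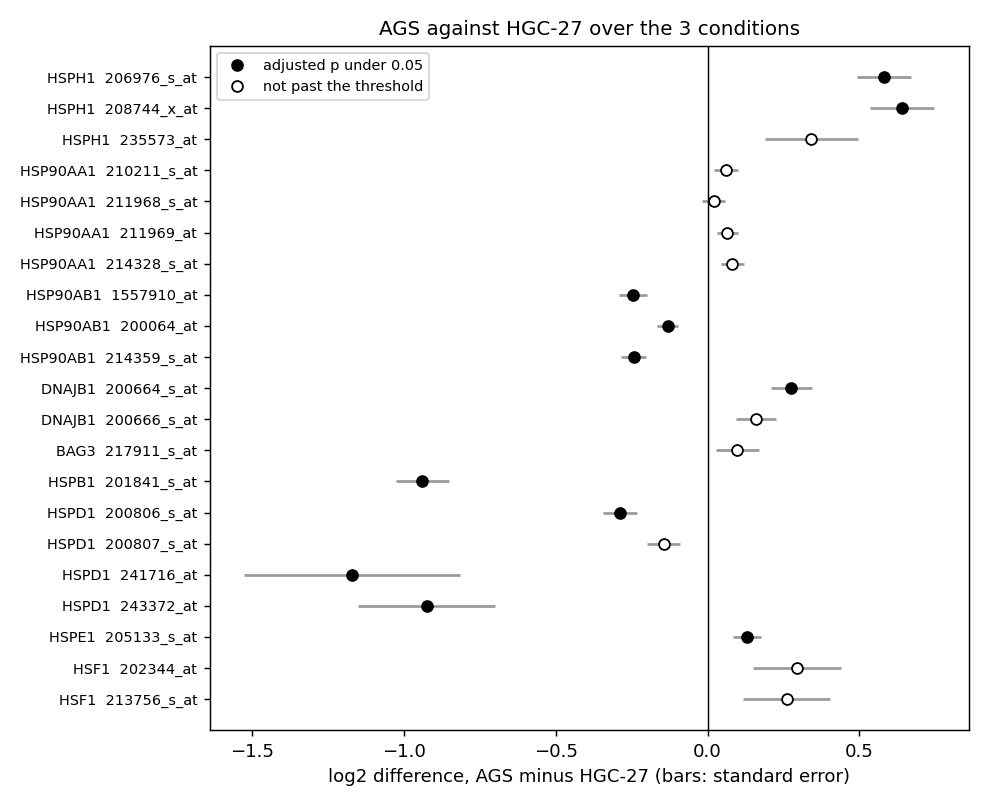
Log2 difference between AGS and HGC-27 (x axis) for the 21 heat shock probe sets tested (y axis), with the fitted difference as a point, filled where the adjusted p is under 0.05, and its SE as a bar. HSPB1 lies at -0.94, the bright HSPH1 probe sets lie at 0.58 and 0.64, and the HSP90AA1 probe sets lie between 0.02 and 0.08.

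Within AGS, the bright HSPD1 probe sets were lower on both transfected arrays than in parental cells, and in HGC-27 the 3 arrays read nearly the same. The difference of transfected from parental cells was compared between the lines as an interaction term, AGS minus HGC-27, with the MIST1 and GFP control arrays of a line standing in for replicates. The parental side rests on 1 array per line, so variation between parental arrays does not enter the SE or the p-values. Of 21 heat shock probe sets 0 were called higher, beside 2.3% of all probe sets, and 4 were called lower in AGS than in HGC-27, beside 8.3% of all. All 4 belong to HSPD1, so they are readings of 1 gene and not independent results. By 200806_s_at the transfected AGS arrays averaged 0.849-fold their parental array, and the HGC-27 arrays 0.993-fold theirs, an interaction of -0.23 on the log2 scale (SE 0.05, limma adjusted p = 0.0428). By 200807_s_at these folds were 0.858 and 1.005 (interaction -0.23, SE 0.05, limma adjusted p = 0.044). HSPE1 stood at 0.962-fold in AGS and 0.982-fold in HGC-27, with an interaction of -0.03 (SE 0.06, limma adjusted p = 0.764).

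The dim HSPD1 probe sets went further. Probe set 241716_at read 25.4 (MIST1), 20.9 (GFP control) and 101.8 (parental) in AGS, against 83.6, 71.4 and 103.3 in HGC-27. The transfected AGS arrays were below the overall median and the parental array above it, and the interaction was -1.72 (SE 0.29, limma adjusted p = 0.0272). Probe set 243372_at read 99.3, 123.5 and 173.9 in AGS, against 256.9, 278.1 and 204.6 in HGC-27, with an interaction of -1.04 (SE 0.23, limma adjusted p = 0.0429). Transfected cells were thus lower than parental cells in AGS and higher in HGC-27 by that probe set. Both differ in size from the bright probe sets of the same gene, and the annotation used here does not say which part of the HSPD1 transcript each one reads.

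The interaction values of HSPH1 had the same sign and were not called. Probe set 208744_x_at read 2278.2 (MIST1), 2291.2 (GFP control) and 3189.8 (parental) in AGS, against 1692.9, 1548 and 1677.5 in HGC-27, an interaction of -0.43 (SE 0.10, limma adjusted p = 0.0514). Probe set 206976_s_at gave -0.34 (SE 0.10, limma adjusted p = 0.0797). HSPB1 stood at 0.825-fold parental in AGS and 1.08-fold in HGC-27, an interaction of -0.39 (SE 0.14, limma adjusted p = 0.128). Of the 21 probe sets, 14 were lower than parental in transfected AGS cells, beside 49.3% of all probe sets, and 8 were lower in HGC-27, beside 36.4% of all.

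These values need the shift of the whole arrays beside them. Over all probe sets tested, the median difference of transfected from parental cells was 0 in AGS and 0.12 in HGC-27 on the log2 scale, and the median interaction was -0.15, the same as the median of the heat shock probe sets. Quantile normalization moved the median over all probe sets to -0.02, and 1 of the 4 HSPD1 calls, that of 241716_at, passed there. The bright HSPD1 probe sets then gave -0.19 each, with limma adjusted p of 0.078 and 0.0708. Leaving out the AGS MIST1, AGS GFP control, HGC-27 MIST1 or HGC-27 GFP control array, which leaves 1 transfected array in a line, gave 0 calls among the 21 and 0 among all probe sets. MALAT1 and 18S ribosomal RNA, given above, also set the parental arrays apart, more so in AGS, and their part in the interaction was not tested. The count among the 21 was also 0 without the variance trend, when dim probe sets were not filtered out, and when the floor was raised to the median.

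**Figure D4:**
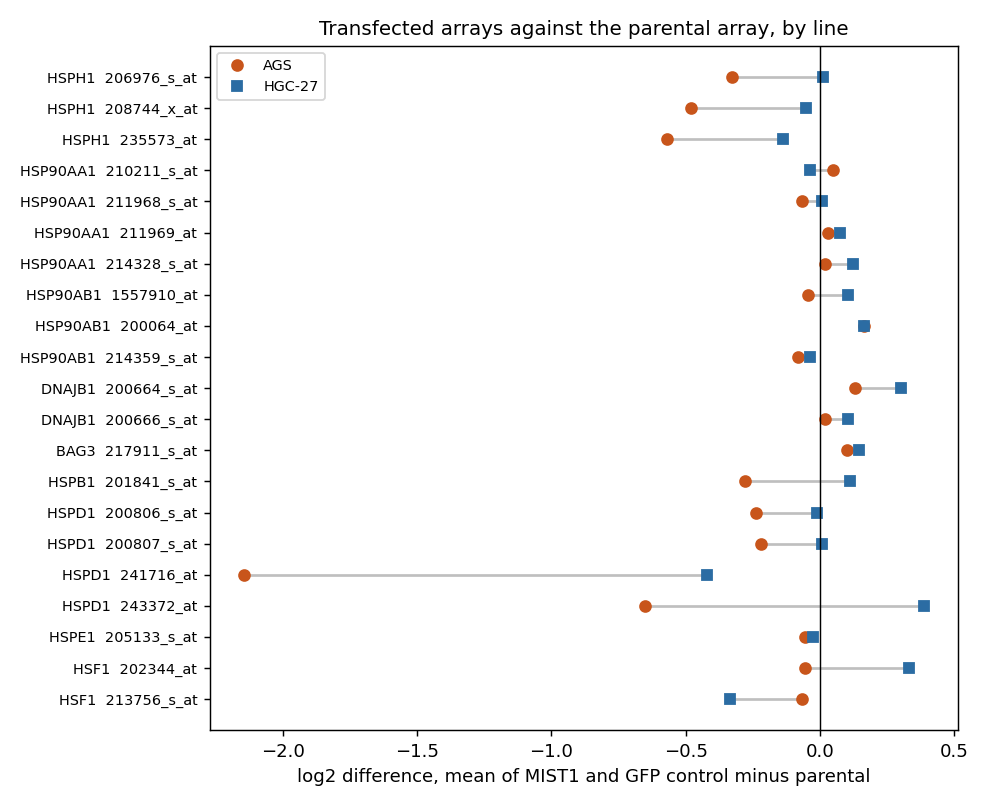
Log2 difference between the mean of the 2 transfected arrays and the parental array of each line (x axis) for the 21 heat shock probe sets tested (y axis), with circles for AGS and squares for HGC-27. The 4 HSPD1 probe sets lie at -0.24, -0.22, -2.14 and -0.65 in AGS and at -0.01, 0.01, -0.42 and 0.39 in HGC-27.

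Other chaperone and co-chaperone genes were taken from 8 lists, of which 80 of 89 genes were measured, 1 probe set per gene (that with the largest mean). MIST1 against the GFP control called 0 of 80, beside 0% of all 13738 genes taken the same way, with a list median of -0.02 beside -0.02 over all genes. GFP control against parental called 1 of 80, beside 0.699% of all genes. UNC45A, a myosin and HSP90 co-chaperone, read 571.4 in the GFP control against 1057.8 in parental cells in AGS, and 508.1 against 954.8 in HGC-27, a log2 difference of -0.90 (SE 0.12, limma adjusted p = 0.0484). That probe set, 207499_x_at, can cross-hybridize by its suffix. MIST1 against parental called 2 of 80, beside 3.36% of all genes, so neither count lies far from that of all genes. They were UNC45A again, at -0.91 (limma adjusted p = 0.0344), and BAG2, an inhibitor of the CHIP ubiquitin ligase on HSP70, at -0.89 (SE 0.11, limma adjusted p = 0.0344). BAG2 read 651.7 (MIST1), 708.9 (GFP control) and 1257.3 (parental) in AGS, against 1119.7, 1292.3 and 1990.7 in HGC-27. Both lines had their highest BAG2 value on the parental array.

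Between the lines 17 of the 80 genes were called higher in AGS, beside 33.3% of all genes, and 30 were called lower, beside 27.4% of all, with a list median of -0.13 beside 0.06 over all genes. The other HSP70 and HSP110 genes gave 1 higher and 1 lower of 7, J-domain co-chaperones 5 and 3 of 16, HSP70 exchange factors and adaptors 3 and 4 of 8, and HSP90 co-chaperones 2 and 4 of 14. The mitochondrial chaperones and proteases gave 0 higher and 7 lower of 13. Among them DNAJA3, the mitochondrial J-domain protein, was at -1.05 (SE 0.15), and the matrix proteases CLPP and LONP1 at -0.83 (SE 0.09) and -0.73 (SE 0.08). The cytosolic chaperonin CCT and its helper prefoldin gave 2 higher and 8 lower of 12, with PFDN2 at -0.89 (SE 0.07). The same shares of all genes stand beside each list, and no list was tested. Of 6 small heat shock proteins other than HSPB1, 1 was higher and 3 were lower. CRYAB, the αB-crystallin that assembles with HSPB1, read 39.9 (MIST1), 38.1 (GFP control) and 22.8 (parental) in AGS, against 713.6, 831.8 and 241.9 in HGC-27. The CRYAB lines were far apart, at -4.01 (SE 0.21, limma adjusted p = 7.83e-06). FKBP5, an immunophilin of the steroid receptor complex with HSP90, was at -1.89 (SE 0.11), and the J-domain proteins DNAJB4 and DNAJB2 at -1.96 (SE 0.12) and 1.86 (SE 0.15). Of 4 genes named for heat shock factors, 3 were higher in AGS and 0 lower. HSBP1L1 was at 3.59 (SE 0.14), HSF2BP at 2.505 (SE 0.157) and HSBP1, whose product binds HSF1, at 0.23 (SE 0.07).

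The interaction term called 0 of the 80 genes higher, beside 2.81% of all genes, and 10 lower, beside 8.12% of all, with a list median of -0.20 beside -0.12 over all genes. They include AFG3L2, CLPX and DNAJA3 of the mitochondrial list, at -0.57, -0.55 and -0.69, and the chaperonin subunit CCT8 at -0.41. The other called genes were SUGT1, DNAJB14, HSPA14, HSPA2, CRYAB and HSPB3. In transfected AGS cells SUGT1, DNAJB14, CCT8 and HSPA14 stood at -0.70, -0.54, -0.29 and -0.26 relative to their parental array on the log2 scale. In HGC-27 the same genes stood at 0.04, 0.35, 0.12 and 0.40, so HSPA14 differed more on the HGC-27 side. AFG3L2, CLPX and DNAJA3 differed mainly on the HGC-27 side, where they stood at 0.47, 0.44 and 0.52.

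**Figure D5:**
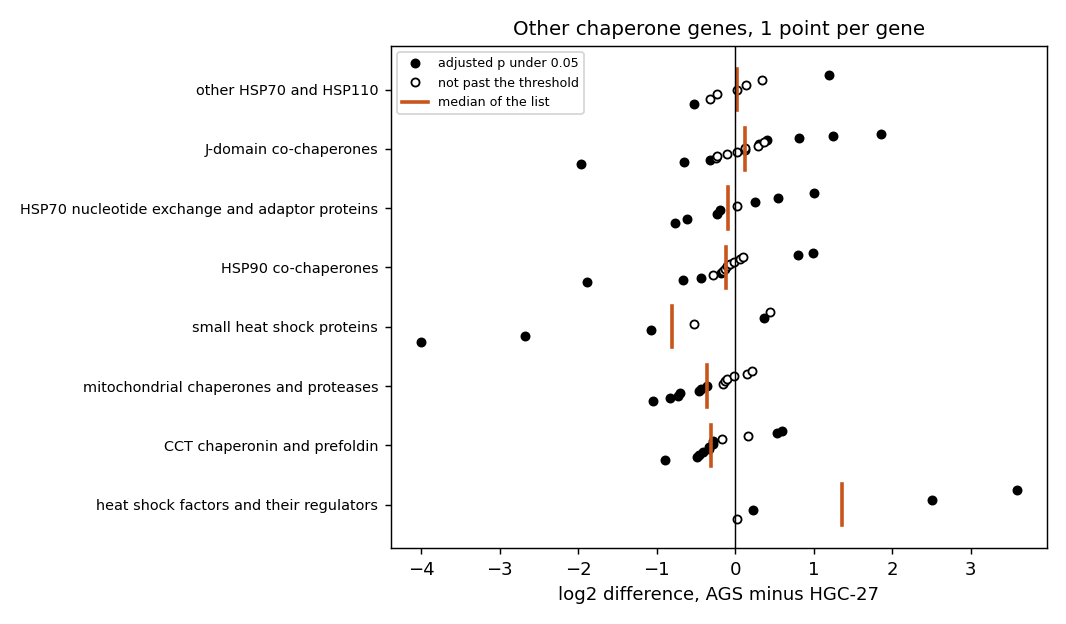
Log2 difference between AGS and HGC-27 (x axis) for 80 other chaperone genes in 8 lists (y axis), 1 point per gene, filled where the adjusted p is under 0.05, with a bar at each list's median. The mitochondrial list has 7 of 13 genes called lower and 0 higher, and CRYAB is the leftmost point at -4.01.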

How the data were processed

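RNA from 6 arrays was analysed. The authors deposited 1 intensity per probe set and array for 54675 probe sets, read as linear because values ran from 0.48 to 19070.49. Per the labels, dChip was used. The background correction and scaling behind the values are not given in the sources used here. Gene names came from the platform annotation, with 41097 probe sets naming 1 gene, 1801 several and 11777 none. Current symbols were looked up by gene ID for 41043. The largest difference between log2 array medians was 0.08, so no scaling was added. Samples were grouped by the labels' genetic modification and cell line.

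Values under 17.6 were set to it, log2 was taken, and probe sets above 50.53 on at least 2 arrays were tested by lmFit and a trended eBayes (limma 3.58.1, R 4.3.3). The fit held condition and cell line over all 6 arrays, with 2 residual and 4.66 prior degrees of freedom. The interaction fit held line, transfection and their product, with 4.17 prior degrees of freedom. Tests were two-sided, and Benjamini-Hochberg adjustment ran over 25954 probe sets. For AGS against HGC-27 and for the interaction, arrays of different conditions stand in for replicates. Nothing in the labels says that any 2 arrays came from separate cultures of 1 condition, so p-values measure the spread between these arrays. In the interaction fit each parental array is fitted exactly. Its p-values therefore measure only the spread between the MIST1 and GFP control arrays of a line. The number of arrays limits the precision.

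The replicate number of a sample is its cell line, so same-numbered arrays are paired by line, and line was a block in each comparison of conditions. No 2 arrays were identical. The members, the gene lists and the tests were chosen with earlier results of these data known. Every gene with a single-gene probe set was named, some of its probe sets only within a range. Of the other lists, called genes were named, up to 3 per list and comparison by size, and otherwise the 2 largest with 1 sign in both lines, of which the text gives a part. CCT8, AFG3L2, CLPX and HSBP1 fall under this rule. Genes whose pattern resembles that of HSPA8 were not sought, since HSPA8 has no single-gene value. Promoters are from the RefSeq table for GRCh38.p14. The scripts were tested on simulated data. Alternatives changed the floor, the filter, the normalization, the probe set per gene, the variance trend, the block and the arrays included.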

Additional observations from a re-analysis of the deposited data

Results flagged for a closer look

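For 14 probe sets, 4 of the 21 heat shock probe sets and 10 of the 80 other chaperone genes, the difference of transfected from parental cells was not the same in the lines by the interaction term (AGS minus HGC-27, log2 scale, limma adjusted p under 0.05). For HSPD1 the values were -0.23 (200806_s_at), -0.23 (200807_s_at), -1.72 (241716_at) and -1.04 (243372_at). The mitochondrial proteases CLPX and AFG3L2 were at -0.55 and -0.57, and the mitochondrial J-domain protein DNAJA3 at -0.69. CCT8 of the cytosolic chaperonin was at -0.41, SUGT1, an HSP90 co-chaperone, at -0.74, DNAJB14, a J-domain protein of the endoplasmic reticulum membrane, at -0.89, and the HSP70 family members HSPA14 and HSPA2 at -0.66 and -1.46. The small heat shock proteins CRYAB and HSPB3 were at -0.9 and -2.55. All 14 values are negative. Of all 25954 probe sets the term called 8.3% lower and 2.3% higher, the median over all was -0.15, and 1 array per line forms the parental side. HSPA2 read 484.2 (MIST1), 468.6 (GFP control) and 502.2 (parental) in AGS, against 294.9, 288.4 and 112.1 in HGC-27, so its transfected arrays stood apart from parental in HGC-27. HSPB3 read 18.9 or less on every AGS array, against 224.1 (MIST1), 196.9 (GFP control) and 34.5 (parental) in HGC-27. The AGS values lie at or near the floor of 17.6, which holds the AGS difference of HSPB3 near 0, so no response in AGS can be read from them and the interaction rests on HGC-27.

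Opposite signs in the lines, by more than 0.1 each way and with 1 array on each side, were seen for 3 heat shock probe sets, and these differences were not tested. HSF1 by 213756_s_at differed by 0.25 in AGS and -0.13 in HGC-27 (MIST1 minus GFP control). HSPB1 differed by -0.16 in AGS and 0.17 in HGC-27 (GFP control minus parental). HSPD1 by 243372_at differed by -0.49 in AGS and 0.44 in HGC-27 (GFP control minus parental), and by -0.81 and 0.33 (MIST1 minus parental).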

How the results depend on the processing

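MIST1 against the GFP control called 0 heat shock probe sets under every alternative run. GFP control against parental, at 0 calls, gave 1 with only the 4 arrays compared and 0 to 10 when 1 array was left out. MIST1 against parental, also at 0, gave 1 and 0 to 9 in the same way. A parental array left out leaves a comparison within 1 line, with the lone sample assumed to vary like the others. AGS against HGC-27, at 11, gave 2 with no filter on dim probe sets, 5 with 1 probe set per gene (9 tested), 5 without the variance trend, and 9 to 15 when 1 array was left out. It gave 15 without both parental arrays, a setting added after seeing the data. Without the replicate block it gave 7. The comparisons of conditions gave 0 heat shock calls with and without the block, while over all probe sets 171 calls of GFP control against parental and 806 of MIST1 against parental became 0 without it. The interaction, at 4, gave 0 without the variance trend, 0 when dim probe sets were not filtered out, 0 with the floor raised to the median, 1 after quantile normalization and 1 with 1 probe set per gene (9 tested). It gave 0 to 0 when a transfected array was left out, could not be fitted without a parental array, and has no block fit. Quantile normalization turned HSPE1 in AGS against HGC-27 to -0.01, the 1 called value of a single probe set that changed sign. Of 1141 alternative values of uncalled probe sets, 50 had the opposite sign. HSPB1 in AGS against HGC-27 kept its direction and its side of the threshold throughout, at -0.85 to -1.09. The causes were not tested, except that fewer probe sets or arrays enter where an alternative leaves them out. A change against a value under the floor is understated, and an interaction with such a change in 1 line, as for HSPB3, can be overstated.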
